A study of Drosophila melanogaster with 4 samples.

Results

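The gene described here is eIF4A (FBgn0001942), which encodes an ATP-dependent RNA helicase of translation initiation. It is 1 of the 2049 genes that the deposited read count table lists by symbol, and its row was selected on measured values: it was picked with its counts known, and the table itself holds only genes that changed between the 2 media in the authors' comparison. The difference of eIF4A between the media is therefore described and not tested.

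S2 cells, an established line of Drosophila embryonic origin, spent 4 h either in KRB (Krebs Ringer Bicarbonate), a buffered salt solution used for amino acid starvation, or in their growth medium, Schneider's medium. Each medium had 2 biological replicates, 4 libraries in all, made from total RNA after depletion of ribosomal RNA. KRB lacks amino acids and serum and contains more sodium than Schneider's medium, so that these differences cannot be told apart here, and all libraries come from a single cell line. The table lists genes that changed, so the identity of the cells could not be checked against marker genes in it.

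In the initiation of translation, eIF4A is the helicase of eIF4F, the complex that also contains eIF4E, which binds the cap of the mRNA, and eIF4G, the scaffold that holds both. It uses ATP to unwind structure in the 5′ part of an mRNA, so that the small ribosomal subunit can land and scan. It is the founding member of the DEAD-box helicases, named after a run of amino acids in their ATP-binding site. In flies, eIF4A has also been linked genetically to signalling by Dpp, a BMP-type growth factor.

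eIF4A was the most counted gene of the table, and its share of the listed reads and its normalized counts were higher in KRB. The listed genes together held 1957713 and 2801713 reads in KRB replicates 1 and 2, against 1108029 and 2414465 reads in Schneider's replicates 1 and 2. Of these, 71989 and 98605 reads fell on eIF4A in the KRB libraries, against 34535 and 77334 reads in the Schneider's libraries. Raw reads did not separate the media, since Schneider's replicate 2 lay above KRB replicate 1. After scaling with TMM, a method of edgeR that corrects for library size and composition, eIF4A had 97400 and 100346 normalized counts in KRB, against 42173 and 45995 in Schneider's medium. The means were 98873 ± 2083 in KRB and 44084 ± 2703 in Schneider's medium (SD, n = 2 each), and the lower KRB library was well above the higher Schneider's library. The ratio of the means was 2.24, and the 4 ratios of 1 KRB to 1 Schneider's library ranged from 2.12 to 2.38. The fitted log2 fold change was 1.17 with a standard error of 0.21. Standard errors of edgeR fits were derived here from the log2 fold change and the F statistic of its quasi-likelihood test. For eIF4A the standard error is not read as a test.

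The 2 replicates of a medium were close to each other for this gene. Their SD was 2.11% of the mean in KRB and 6.13% in Schneider's medium, and counting error alone amounted to 0.538% in the smallest library. The biological coefficient of variation that edgeR assigned to eIF4A was 0.133, against a median of 0.198 over the tested genes.

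**Figure D1:**
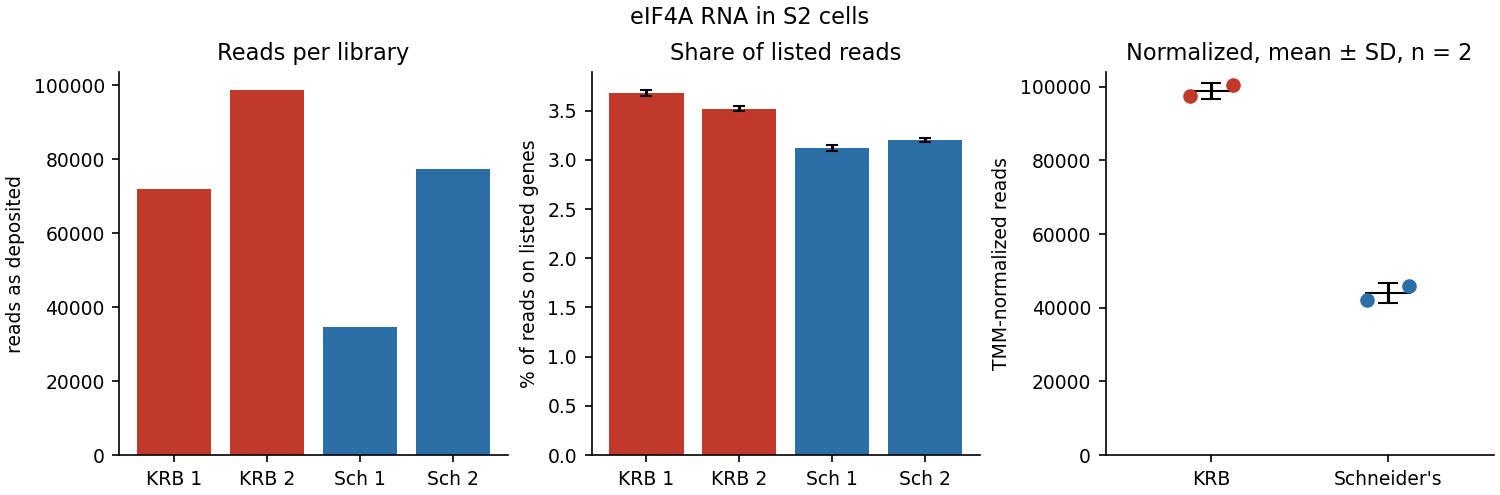
eIF4A in each library, as reads as deposited (left), as a percentage of the reads on listed genes with 95% Wilson intervals (middle), and as TMM-normalized counts with the mean and SD of 2 replicates (right). Raw reads overlap between the media, whereas the shares (3.52% and 3.68% in KRB, 3.12% and 3.20% in Schneider's medium) and the normalized counts do not.

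As a share of the reads on listed genes, which is the same as scaling by total counts, the difference was much smaller. eIF4A took 3.68% (95% Wilson interval 3.65 to 3.70) and 3.52% (3.50 to 3.54) of these reads in KRB. In Schneider's medium it took 3.12% (3.08 to 3.15) and 3.20% (3.18 to 3.23). These intervals cover counting error only, as amplified reads are not independent molecules. The shares did not overlap between the media, and as a log2 fold change with scaling by total counts the difference was 0.19 (standard error 0.11). The size of the difference thus rests on how the libraries are scaled, and this is the main limit of the value. RLE factors of edgeR put the log2 fold change at 1.91 and upper-quartile factors at 1.62. It was above 0 with each scaling. With each library left out in turn it ranged from 0.95 (without Schneider's replicate 1) to 1.38 (without KRB replicate 1). Read counts are relative and these files hold no measure of RNA per cell, so a change in the total RNA of a cell does not show in them, and fewer cells and less RNA per cell cannot be told apart from these counts.

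The eIF4A gene lies on chromosome 2L from 5981764 to 5985909, on the plus strand, in the BDGP6 annotation, whose assembly is the Dm6 build used by the authors. The annotation gives it 6 transcripts with 3 different starts and 4 different ends. All 6 carry the same coding length of 403 codons. The coding part is shared apart from its short first piece, which begins 70 or 1056 bases from the start of the gene. The transcripts differ in the untranslated parts, with 70, 226 or 457 bases on the 5′ side and 271 to 739 bases on the 3′ side. The table has 1 row for the symbol, so that transcripts with different ends could not be told apart. No other annotated gene overlaps eIF4A. A fragment of the retrotransposon blood, 37 bases long and on the same strand, is annotated inside the span and is the only other feature there.

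The genes on either side of eIF4A were not listed. The nearest, ifc, begins 438 bases downstream, and chic, on the other strand, begins 745 bases upstream, so that it and eIF4A are head to head. The closest listed genes were rau, 102265 bases upstream, and CG9109, 39960 bases downstream. rau had 34 and 50 reads in KRB, against 3 and 11 reads in Schneider's medium. CG9109 had 4 and 4 reads in KRB, against 0 and 1 reads in Schneider's medium, and was too low to be tested. Neither adjoins eIF4A.

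**Figure D2:**
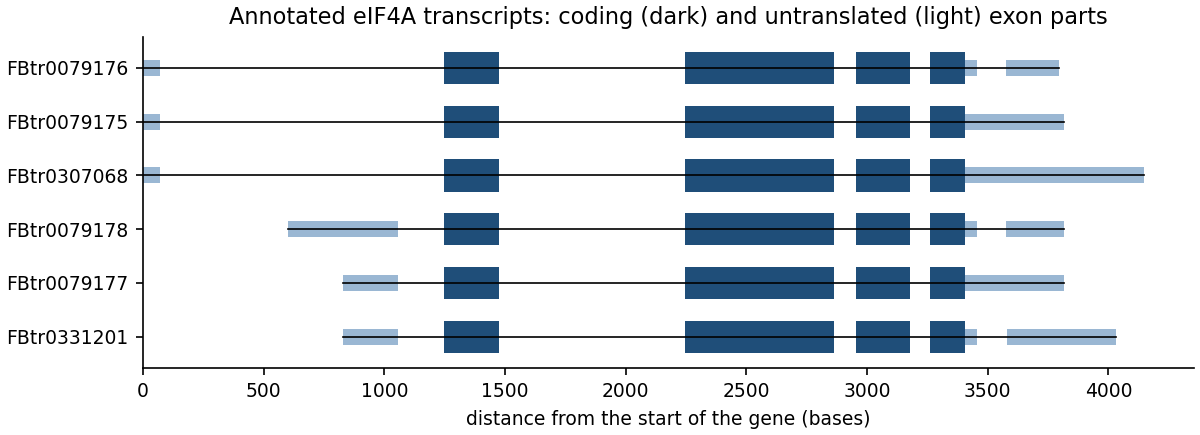
The 6 annotated eIF4A transcripts drawn to scale, with the distance from the start of the gene in bases on the horizontal axis and thick boxes for coding and thin boxes for untranslated exon parts. The coding part is shared apart from its short first piece, which begins at base 70 or base 1056, and the 3 starts and 4 ends change the untranslated parts.

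Of the other genes of translation initiation, few were listed. The gene lists used here held 21 partners and regulators of eIF4F, of which 3 were listed (Paip2, Thor and eIF4E5), and 35 other initiation factors, of which only DENR was listed. Neither the eIF4G nor the eIF4E1 gene of eIF4F itself was among the listed genes, and genes outside the table are not analysed here. Of the 4 listed genes 3 were tested, and 2 were called higher and 1 lower in KRB in the quasi-likelihood test of edgeR (threshold 0.05 on the p adjusted by Benjamini-Hochberg). Over the whole table, 42.3% of 1756 tested genes were called higher and 53.6% lower. The authors had selected these genes on the same libraries, so the calls are no independent evidence.

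Paip2 (3R, 12980792 to 12985488) encodes an inhibitor of the poly(A)-binding protein, which itself binds eIF4G. It had 1944 and 2013 normalized counts in KRB, against 819 and 868 in Schneider's medium. The log2 fold change was 1.23 ± 0.14 (SE, adjusted p = 0.00116 in edgeR's test) and its normalized counts were far below those of eIF4A. With total counts its log2 fold change was 0.25 and the call was lost (adjusted p = 0.127 in edgeR's test).

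Thor (2L, 3478434 to 3479612) encodes 4E-BP, which competes with eIF4G for eIF4E and so keeps eIF4A out of the complex. Its normalized counts were 69.0 and 27.5 in KRB, against 8.55 and 21.4 in Schneider's medium. The media did not overlap, but the replicates of each spread by more than 2-fold. With 7 to 51 reads per library, its log2 fold change of 1.57 had a standard error of 0.60 (adjusted p = 0.0410 in edgeR's test). The call did not hold without KRB replicate 1 (log2 fold change 0.99, adjusted p = 0.198 in edgeR's test), without Schneider's replicate 1 (0.98, adjusted p = 0.149), without the filter on low counts (1.38, adjusted p = 0.0767) or with total counts (0.63, adjusted p = 0.368), and the log2 fold change was 2.29 without Schneider's replicate 2.

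DENR (X, 16885546 to 16886560) encodes a factor of reinitiation, which helps ribosomes to start again after a short upstream reading frame. It had 287 and 262 normalized counts in KRB, against 535 and 593 in Schneider's medium. Its log2 fold change was -1.04 ± 0.17 (SE, adjusted p = 0.00247 in edgeR's test), and the call was lost with RLE factors (-0.30, adjusted p = 0.188) and in DESeq2 (-0.30, adjusted p = 0.406). The gene overlaps Polr3I in the annotation, and whether the counting used the strand is not stated. eIF4E5, one of several fly relatives of the cap-binding protein, had 2 and 0 reads in KRB, against 5 and 13 reads in Schneider's medium, too few to pass the filter on low counts.

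Of other genes around translation, none of 13 elongation and termination factors and none of 21 genes of TOR and the integrated stress response was in the table. The symbols Elf, Abce1 and Tor of these lists were not found in the annotation, and the table may hold such genes under another symbol. The 7 genes of the exon junction complex, which contains the related helicase eIF4AIII, were also not listed. Whether reads were shared between eIF4A and eIF4AIII was not tested.

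Of 31 other DEAD-box helicase genes, 2 were listed, CG9143 and CG5589, and both were called lower in KRB, as were 53.6% of all tested genes. CG9143 (2R, 20275973 to 20278915) had 637 and 717 normalized counts in KRB, against 1307 and 1143 in Schneider's medium. Its log2 fold change was -0.85 ± 0.16 (SE, adjusted p = 0.00359 in edgeR's test). CG5589 (3L, 17802490 to 17804715) had 208 and 254 normalized counts in KRB, against 460 and 501 in Schneider's medium, a log2 fold change of -1.05 ± 0.19 (SE, adjusted p = 0.00313 in edgeR's test). Per kilobase of exon, eIF4A stood at 39868 normalized counts in KRB and 17776 in Schneider's medium, CG9143 at 250 and 452, and CG5589 at 110 and 228. Both helicase genes kept a negative log2 fold change under each scaling, but with RLE factors the fall shrank to -0.12 for CG9143 (adjusted p = 0.597 in edgeR's test) and -0.31 for CG5589 (adjusted p = 0.235) and was no longer called. In DESeq2, which uses the same kind of factors, neither was called (adjusted p = 0.711 for CG9143 and 0.442 for CG5589). CG9143 overlaps CG11788. Its call was also lost with upper-quartile factors (-0.40, adjusted p = 0.0837 in edgeR's test). Without KRB replicate 1 its log2 fold change was -0.58 (adjusted p = 0.0854 in edgeR's test).

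**Figure D3:**
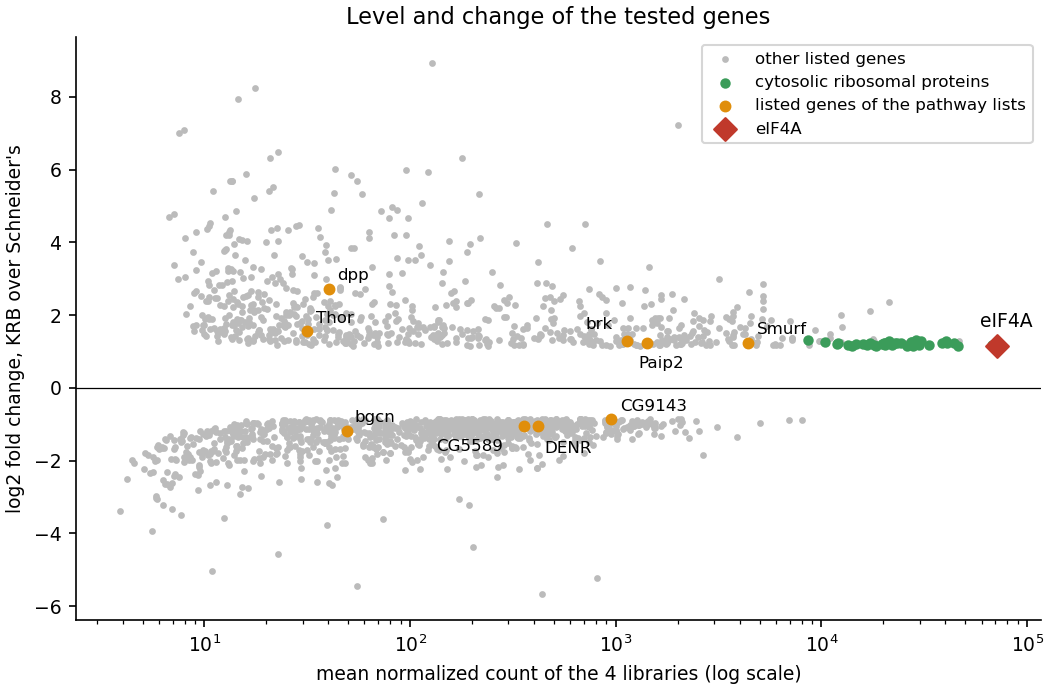
Mean normalized count over the 4 libraries (horizontal, log scale) against the log2 ratio of KRB to Schneider's medium for the 1756 tested genes, with eIF4A as a diamond, the 38 listed ribosomal protein genes in green and the tested genes of the pathway lists in orange. eIF4A sits at the far right of the plot at 1.17, in a narrow band with the ribosomal protein genes, and the empty strip around 0 is the authors' selection.

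The gene list used here for Dpp signalling held 14 genes, among them the germline gene bgcn, and 4 of the 14 were in the table. Of these 4, 3 were called higher and bgcn was called lower. Over all tested genes, 42.3% were called higher and 53.6% lower. dpp (2L, 2428372 to 2459823), the ligand, had 50.1 and 90.6 normalized counts in KRB, against 6.11 and 13.7 in Schneider's medium, a log2 fold change of 2.73 ± 0.50 (SE, adjusted p = 0.00327 in edgeR's test). It was scarce, with 5 and 23 reads in Schneider's medium, and its log2 fold change was 1.76 with total counts, 3.50 with RLE factors and 3.35 without Schneider's replicate 2, each still called. brk (X, 7307939 to 7311132) encodes a repressor of Dpp target genes, and it had 1606 normalized counts in each KRB library, against 705 and 620 in Schneider's medium (log2 fold change 1.28, standard error 0.15, adjusted p = 0.00118 in edgeR's test). Smurf (2R, 17592791 to 17604461) encodes a ubiquitin ligase that acts on the Dpp pathway, and had 5720 and 6645 normalized counts in KRB, against 2512 and 2727 in Schneider's medium (log2 fold change 1.24, standard error 0.16, adjusted p = 0.00150 in edgeR's test). bgcn (2R, 23853270 to 23858921), a germline gene whose protein is related to RNA helicases, was low. It had 31.1 and 29.5 normalized counts in KRB, against 56.2 and 79.7 in Schneider's medium (log2 fold change -1.18, standard error 0.33, adjusted p = 0.0136 in edgeR's test). With total counts the calls of brk (0.30, adjusted p = 0.131 in edgeR's test) and Smurf (0.26, adjusted p = 0.108) were lost, and bgcn lost its call with upper-quartile factors (-0.71, adjusted p = 0.0684), with RLE factors (-0.42, adjusted p = 0.263), in DESeq2 (-0.42, adjusted p = 0.575) and without either KRB library (adjusted p = 0.0810 and 0.0591). brk, Smurf and bgcn each overlap other annotated genes. The genes of Mad and Med, which carry the Dpp signal into the nucleus, were not listed.

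By level, eIF4A stood at the top of the table among genes of the ribosome. In 3 libraries it was the most counted gene, and in KRB replicate 2 it came second to RpS5a, a protein of the small ribosomal subunit, with 98605 against 98725 reads. Next by mean normalized count after RpS5a was Hsc70-3, the ER chaperone BiP. Of the 20 genes with the highest mean, 16 encode cytosolic ribosomal proteins. Per kilobase of exon, eIF4A ranked 21st of 2036 genes with a known length, and the 20 genes above it all encode ribosomal proteins. Among the 1454 genes with at least 1000 bases of exon it ranked 5th. These lengths join the exons of all annotated transcripts, 2480 bases for eIF4A, and so understate the level of genes with several alternative ends.

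Of the 100 genes with the highest mean normalized count, 96 were called higher with TMM, against 42.3% of all tested genes. This count rests on the scaling. With total counts 29 of the 100 were called higher, against 335 of 1756 tested genes, although 96 kept a log2 fold change above 0. In size, however, eIF4A was near the lower edge of the higher genes: of the 742 genes called higher, 730 had a larger log2 fold change. Genes with an absolute log2 fold change under 1 in the authors' comparison were not listed, so this is a place among listed genes only. The 38 listed ribosomal protein genes were all called higher with TMM, as were 42.3% of all tested genes. They ran from 1.15 to 1.32 with a median of 1.22, and 33 of them lay above eIF4A. Ribosomal protein genes that did not pass the authors' selection are absent from the 38, so this range has a floor set by it. With total counts the median of the 38 was 0.24 and 1 of them was called higher, against 335 of 1756 tested genes. The order of eIF4A and these genes rests on single libraries. Without KRB replicate 1 all 38 lay above eIF4A, but without Schneider's replicate 1 only 15 and without KRB replicate 2 only 17 did.

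Ratios of 2 genes within a library are free of scaling, and for eIF4A against most ribosomal protein genes they overlapped between the media. The 38 genes together took 46.9% and 49.2% of the reads on listed genes in KRB, against 38.9% and 42.5% in Schneider's medium. For 100 reads on these 38 genes, there were 7.84 and 7.16 eIF4A reads in KRB, against 8.01 and 7.54 in Schneider's medium, and the media overlapped. Per RpS5a read, there were 1.10 and 0.999 eIF4A reads in KRB, against 1.06 and 1.08 in Schneider's medium, again with an overlap. Per Hsc70-3 read, there were 1.57 and 1.41 eIF4A reads in KRB, against 1.73 and 1.53 in Schneider's medium, and these overlapped too. Between libraries of the same replicate number, the ratio to the 38 genes and the ratio to Hsc70-3 were lower in KRB in each pair. The ratio to RpS5a was higher in KRB for replicate 1 and lower for replicate 2. RpS5a shares its span with annotated snoRNA genes, and whether the counting used the strand is not stated. Whether libraries of the same number were prepared together is not given in the sources used here. The ratio of eIF4A to a single ribosomal protein gene was lower in both KRB libraries for 6 of the 38 genes (RpL23A, RpL26, RpL37A, RpLP1, RpS15 and RpS25), higher in both for none, and overlapped for 32. Over all other tested genes, the ratio was lower in both KRB libraries for 25.3% and higher in both for 57.2%. Among the 6, the relative gap was largest for RpL23A, with 8.08 and 8.05 eIF4A reads per RpL23A read in KRB, against 8.96 and 9.02 in Schneider's medium. With 2 libraries against 2, an exact permutation test cannot go below p = 0.333, so none of these ratios was tested on its own. The ribosomal protein genes were grouped after the table was seen, and they too were listed by the authors for their change.

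**Figure D4:**
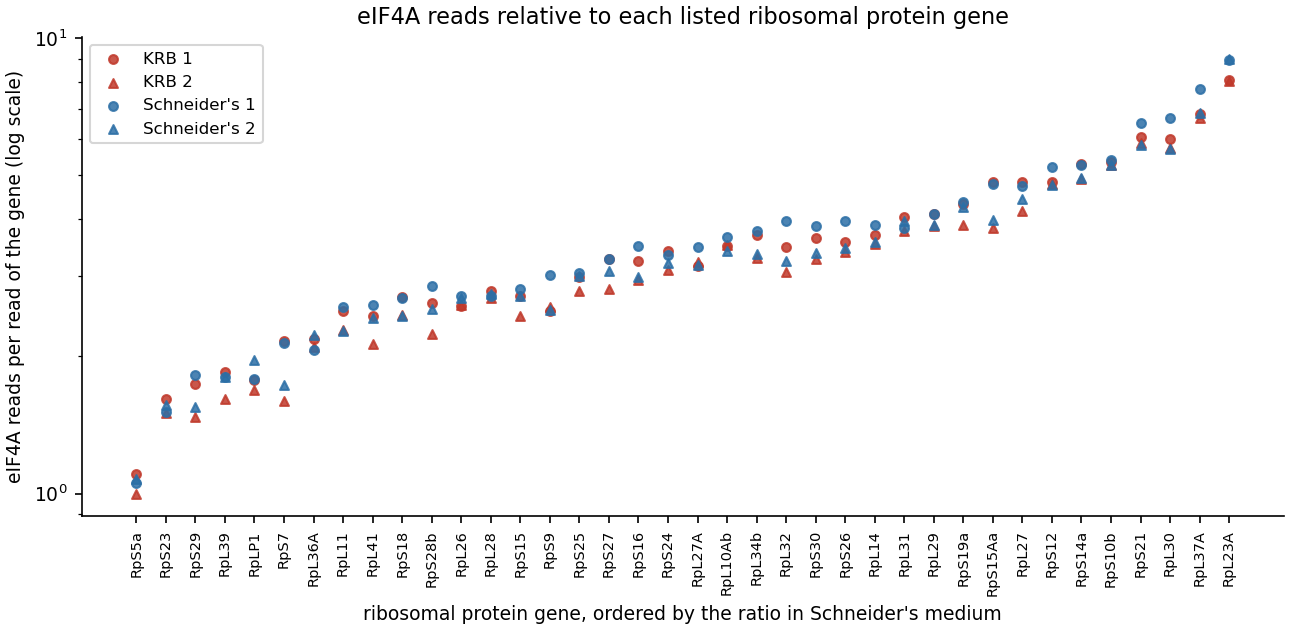
eIF4A reads per read of each of the 38 listed ribosomal protein genes (log scale) in the 4 libraries, circles for replicate 1 and triangles for replicate 2. The ranges of the KRB and Schneider's libraries overlap for most genes, and the ratios run from about 1 for RpS5a to 8.05 to 9.02 for RpL23A.

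The genes whose pattern over the 4 libraries was most like that of eIF4A were again mostly ribosomal. Likeness was measured as the distance between log2 normalized counts centred on each gene's mean, among 921 other tested genes with a mean of at least 100. The 5 nearest were RpS10b, RpL28, RpL26, Paip2 and RpL10Ab, at distances of 0.03 to 0.07 on the log2 scale, against a median of 2.10 over all genes compared. RpS10b, at 0.03, had 18225 and 19027 normalized counts in KRB, against 7828 and 8736 in Schneider's medium. RpL28 had 34906 and 37257 normalized counts in KRB, against 15539 and 16807 in Schneider's medium. RpS10b, RpL28 and RpL10Ab each overlap other annotated genes. Of the 20 nearest genes, 14 encode ribosomal proteins. The 4 libraries are the same ones that gave the difference between the media, and the likeness is a description. The distance is made up largely of the gap in log2 fold change, whose median over all tested genes was -0.92. The value of 2.10 therefore mostly restates the selection of the table for change. With a minimum mean of 500 or with total counts the 5 genes were the same, and without centring, where the level counts as well, none of them was.

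**Figure D5:**
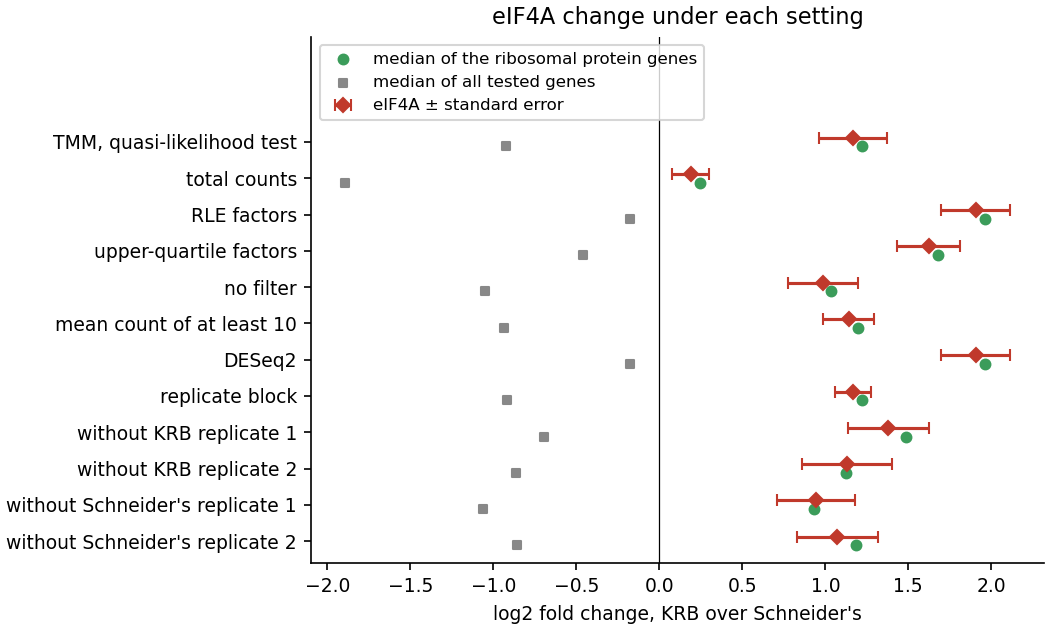
Log2 ratio of KRB to Schneider's medium for eIF4A with its standard error (red diamonds), the median of the 38 ribosomal protein genes (green) and the median of all tested genes (grey squares), for each way of processing the counts and with each library left out. eIF4A moves between 0.19 and 1.91. Its distance to the ribosomal median, from which scaling nearly cancels, lies between -0.11 and 0.01, and both ends are reached with a library left out.

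As the plot of the settings shows, the value for eIF4A and the ribosomal median moved together. A change of scaling moves all genes by nearly the same amount, so it could not pull them apart. With TMM eIF4A lay 0.05 below the ribosomal median on the log2 scale (difference -0.05), and the difference was -0.05 with total counts and -0.06 with RLE factors. With a library left out the difference ran from -0.11 to 0.01, a change of sign. Scaling moved all tested genes as well, by -0.97 with total counts, 0.46 with upper-quartile factors and 0.74 with RLE factors in the median. Relative to the median of all tested genes, which was -0.92 with TMM, eIF4A was higher in KRB under each setting. The choice of scaling could not change this comparison either, and the median is that of the genes the authors listed.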

How the data were processed

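RNA of 4 S2 libraries was measured by the authors with rRNA depletion, a stranded total RNA library kit and single-end sequencing. Per the labels and the study's methods, alignment to Dm6 used STAR 2.4.0.1, and reads per transcript were counted by in-house Python code; whether strand was used is not given in the sources used here. The deposited raw counts per gene symbol were used. The authors' columns of log2 fold change and p-value, from edgeR 3.24.3, were not used except to see how the table was selected: 0 of 2049 listed genes have an absolute log2 fold change under 1 or a p of 0.05 or more there. Libraries could therefore be scaled only on changed genes. All columns of samples were mapped (0 left).

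Counts were tested with edgeR 4.0.16 in R 4.3.3 (filterByExpr, which left 1756 genes and removed 293, TMM factors, quasi-likelihood fit of 2 against 2 libraries, Benjamini-Hochberg adjustment over all tested genes, threshold 0.05), after a check on simulated data. In the simulation most genes were unchanged, and the changed ones rose and fell in equal numbers. It therefore could not check the scaling of a table that holds only changed genes. The result for eIF4A is given with no p-value. Alternatives were total counts, RLE and upper-quartile factors, DESeq2 1.42.0, no filter, a mean count of at least 10, a replicate block, and each library left out. Gene positions came from the Ensembl BDGP6 annotation, release 115, which named 2036 of the listed genes. Tables and plots were made with Python 3.11.15, pandas 2.3.3, scipy 1.17.1 and matplotlib 3.10.9.

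eIF4A and the gene lists were chosen with earlier results of these data known. The genes named were eIF4A, each list member in the table, the 5 genes most like eIF4A (centred log2 of the normalized count + 0.5, mean of at least 100), the next 2 by level, and overlapping or neighbouring genes. Ribosomal protein genes were grouped after their values were seen.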

Additional observations from a re-analysis of the deposited data

How the results depend on the processing

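The log2 fold change of eIF4A, 1.17 with TMM, was 0.19 with total counts, 1.91 with RLE factors and with DESeq2, 1.62 with upper-quartile factors and 0.98 without the filter on low counts, and ran from 0.95 to 1.38 with a library left out. It stayed above 0 under these alternatives. Genes called higher numbered 742, and 335 with total counts. Genes called lower numbered 942, against 178 with RLE factors, 547 with upper-quartile factors, 89 with DESeq2 and 530 to 938 with a library left out, the lowest without KRB replicate 1. Of the initiation factors and regulators, 2 were called higher, against 0 with total counts, 1 without the filter and 1 to 2 with a library left out. The 2 DEAD-box genes called lower became 0 with RLE factors and with DESeq2, 1 with upper-quartile factors and 1 to 2 with a library left out. All scalings rest on a table that holds only changed genes, and the causes of these shifts were not tested.

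With a replicate block, eIF4A had 1.17, and 751 genes were called higher and 1004 lower. The block changed no call of a named gene. The block lowered the standard error of eIF4A from 0.21 to 0.11. The labels give the replicate numbers but not whether libraries of the same number were prepared together. The deviations of the KRB and Schneider's libraries of the same number had r = 0.26 over 1756 genes, with 2 pairs. For the 15 named genes with a test, 139 of 165 alternative values kept direction and call, 26 lost the call and 0 reversed. Depth limits Thor, dpp and eIF4E5, which had few reads. Genes outside the table cannot be read as unchanged.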
